A study of Mus musculus with 6 samples.

Results

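The genes described are 7 enzymes of mouse liver that oxidise or reduce steroids: Hsd11b1, Hsd3b2, Hsd3b3, Hsd3b5, Hsd17b2, Hsd17b6 and Srd5a1. They were chosen by name, with earlier results of these data known. Each had 1 row among the 30029 genes of the deposited count table, and all 7 passed the filter on low counts that left 17606 genes for testing. The table held 6 libraries of polyadenylated liver RNA, 3 with the label wild type and 3 with the label Atp7b knockout, every one from mice labelled as fed a high-fat diet for 24 weeks. The labels do not say whether each library came from its own mouse. Atp7b is the copper-exporting ATPase whose loss causes Wilson disease. The labels give no strain, age or sex, no allele, and no chow-fed or untreated group, so the diet is shared by every library and its own effect cannot be seen.

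The hydroxysteroid dehydrogenases and the steroid reductases decide how much active hormone a liver cell holds, by interconverting hydroxyl and keto groups or saturating a double bond of the steroid ring. Hsd11b1 regenerates active glucocorticoid from its inert keto form. The Hsd3b enzymes make or unmake the keto group from which most active steroids are built, Hsd17b2 inactivates oestradiol and testosterone, and Srd5a1 reduces testosterone and glucocorticoids. In mouse liver several of these genes are known to differ between the sexes, Hsd3b5 being a classic male-specific transcript under the pulsatile growth hormone of males.

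Total counts ran from 57886524 to 70965999 per library, and 3 counts, taken as the floor of detection, corresponded to 0.0339 to 0.0578 CPM. Atp7b itself was not lower in the knockout-labelled libraries (24.6 ± 8.42 against 25.5 ± 1.77 CPM, SD, n = 3 each; edgeR adjusted p = 0.939), so its total did not check the labels, and groups are named here as labelled. Ddx3y of the Y chromosome had 2130 counts or more in all 6 libraries, and Xist had 15 or fewer. Summed over 11 hepatocyte markers, levels were 79824 to 83847 CPM in the wild-type-labelled libraries and 69290 to 86764 CPM in the knockout-labelled libraries, and without Alb, the albumin gene and highest of them, 48870 to 51177 against 29881 to 41367 CPM. Of the 11, 10 were fitted below 0, and Fgb of fibrinogen (log2 fold change -1.39, adjusted p = 0.0489) and Ambp, a plasma protein precursor (-1.15, adjusted p = 0.0498), were called lower. Of 12 markers of steroid-producing glands, 8 had a row, Nr5a1 and Mc2r among them were at 0 in every library, and their sum was 4.44 to 26.4 CPM. Bile duct markers summed to 676 CPM over 12 genes in labelled knockout replicate 3, against 264 and 91.2 CPM in labelled knockout replicates 1 and 2 and 82.1 to 112 CPM in the wild-type-labelled libraries. Most of that sum was Spp1, and without it the other 11 summed to 95.2 CPM in labelled knockout replicate 3, 31.4 and 16.6 CPM in replicates 1 and 2 and 7.24 to 13.97 CPM in the wild-type label. All 10 tested bile duct markers were fitted above 0, and Krt23 was called higher (log2 fold change 3.99, edgeR adjusted p = 0.038). Stellate and fibroblast markers summed to 297 to 331 CPM in the wild-type-labelled libraries and 633 to 1141 CPM in the knockout-labelled libraries, with 3 of 12 called higher. Macrophage markers summed to 462 to 830 against 855 to 888 CPM, with Cd68 called higher (1 of 12), and to overlapping ranges without Lyz2. Of these 12, 8 were fitted above 0 and 4 below, the latter being Timd4, Marco, Clec4f and Vsig4. Neutrophil markers summed to 1107 to 2441 against 125 to 452 CPM, with 0 of 10 called, and nearly all of that was Lcn2, without which the sums were 8.64 to 11.9 and 9.36 to 13.97 CPM. The part of these markers in the differences described here was not tested. In RNA from whole tissue, fewer cells of a type and less RNA per cell cannot be told apart.

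Hsd17b2 fell 2.05-fold in the knockout-labelled libraries and was the only 1 of the 7 genes past the test. Hsd3b5 was the most different in level, 14.4-fold lower on the fitted scale, but it did not pass the test. Hsd17b6 was the only 1 of the 7 with a positive log2 fold change, 1.39, and it did not pass the test. Hsd11b1, Hsd3b3, Hsd3b2 and Srd5a1 had log2 fold changes between -0.50 and -0.22, and none of these 4 passed. The last 3 turned positive when libraries were scaled by total counts. With the median of all tested genes subtracted they stayed negative. With TMM and total counts, the values were -0.25 and -0.28 for Hsd3b3, -0.20 and -0.24 for Hsd3b2 and -0.27 and -0.27 for Srd5a1. Across all tested genes 1.44% were called in either direction at an adjusted p under 0.05, 0.932% higher and 0.506% lower. Unadjusted, 3 of the 7 had a p under 0.05, beside 19.7% of all tested genes. The DESeq2 test, used as an alternative, called 10.6% of all tested genes, and edgeR with total counts 5.73%. The median log2 fold change of the 7 was -0.29, beside -0.02 for all tested genes, and with total counts it was 0.030, beside 0.31.

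**Figure D1:**
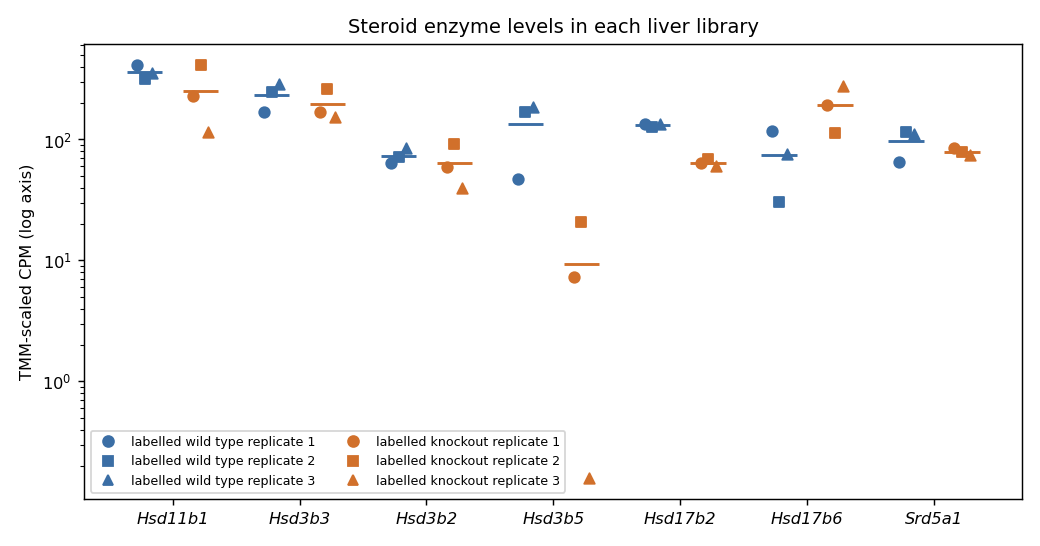
TMM-scaled CPM of the 7 genes on a log axis in each of the 6 libraries, with circles, squares and triangles for replicates 1, 2 and 3 and a bar for the mean of each group. The Hsd17b2 points of the groups stand apart with little spread, and Hsd3b5 spans from 187 CPM down to 0.158 CPM.

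Hsd3b5, Hsd3b3 and Hsd3b2 lie side by side on chromosome 3, and the sequences just before their RefSeq starts were compared. The 250 bases upstream of the first RefSeq start listed for each (GRCm38.p6, minus strand) are printed 5′ to 3′ at chr3:98645535-98645784, chr3:98763129-98763378 and chr3:98724544-98724793. The Hsd3b2 and Hsd3b3 windows lie within 1 base of the GENCODE starts of these genes in the same build. The Hsd3b5 window lies 15282 bases beyond its GENCODE start, since the RefSeq gene begins farther out. The counted Hsd3b5 gene spans the same length as the GENCODE one, so this window is not next to the start of the gene as counted. Capitals mark runs of at least 14 identical bases shared by the Hsd3b5 and Hsd3b3 windows.
Hsd3b5: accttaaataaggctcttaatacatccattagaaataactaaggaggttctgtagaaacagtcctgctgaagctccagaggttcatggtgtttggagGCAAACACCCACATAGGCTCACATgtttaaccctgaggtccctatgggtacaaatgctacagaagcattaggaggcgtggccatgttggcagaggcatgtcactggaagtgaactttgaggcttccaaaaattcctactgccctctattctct
Hsd3b3: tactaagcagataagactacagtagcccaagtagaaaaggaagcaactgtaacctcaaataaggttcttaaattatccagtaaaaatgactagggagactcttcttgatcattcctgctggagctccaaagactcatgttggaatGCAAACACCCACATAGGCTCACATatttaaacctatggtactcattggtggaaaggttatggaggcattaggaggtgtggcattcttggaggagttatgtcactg
Hsd3b2: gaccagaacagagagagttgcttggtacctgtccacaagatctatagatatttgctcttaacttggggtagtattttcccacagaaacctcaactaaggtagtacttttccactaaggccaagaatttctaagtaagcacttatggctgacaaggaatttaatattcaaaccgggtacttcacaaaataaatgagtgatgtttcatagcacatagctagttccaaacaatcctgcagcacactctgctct
The Hsd3b5 and Hsd3b3 windows shared 1 such run of 24 bases, and over 202 aligned columns they were 74.8% identical. The run occurred in 3 of 32851 windows of the same length (0.00913%), all of them upstream of Hsd3b5 or Hsd3b3. The Hsd3b2 window shared no run of that length with the Hsd3b5 window, and their best local alignment covered 31 columns. Of the 7 genes 6 had a window in that table. Searched on both strands, none of these windows held TTCNNNGAA (the STAT5 motif, in 7.02% of all windows), TTGCNNAA (C/EBP, 9.56%), the palindromic glucocorticoid receptor motif (0.387%) or the HNF1 motif (0.0609%), which says only that these letters were not in this stretch. The window of Hsd11b1, too, follows a RefSeq start that differs from the GENCODE one.

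Hsd11b1 (ENSMUSG00000016194; GRCm39 chromosome 1, 192903942 to 192925869) encodes the reductase that turns inert glucocorticoid back into corticosterone. It had 409, 315 and 353 CPM in labelled wild-type replicates 1, 2 and 3 and 231, 416 and 115 CPM in labelled knockout replicates 1, 2 and 3. The knockout label thus held both the highest and the lowest library, and the groups overlapped. The means were 359 ± 47.5 and 254 ± 152 CPM, which on the log2 scale is a fitted difference of -0.50 (95% interval -1.46 to 0.46; adjusted p = 0.569 by the quasi-likelihood test of edgeR). With 1 library left out the difference ran from -1.02 without labelled knockout replicate 2 (adjusted p = 0.0999) to -0.15 without labelled knockout replicate 3. The highest labelled knockout library exceeded the lowest 3.62-fold, against 1.30-fold among the wild-type-labelled libraries. The spread in the knockout group, a coefficient of variation of 59.8%, was larger than that of 89.5% of tested genes in the same libraries.

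The enzyme draws on NADPH made inside the endoplasmic reticulum. The list of 7 genes read for this supply was wider than it, holding also cytosolic NADPH enzymes and electron carriers. None of the 7 was called (1 with an unadjusted p under 0.05, and DESeq2 called 1). H6pd, the hexose phosphate dehydrogenase coupled to Hsd11b1, had 528 ± 72.3 and 406 ± 73.8 CPM (adjusted p = 0.352). G6pdx, its cytosolic counterpart, had 4.99 ± 0.762 and 8.99 ± 0.524 CPM (adjusted p = 0.0606). Among 8 tested steroid receptors and carriers none was called (1 with an unadjusted p under 0.05, and DESeq2 called 0). Esr1, the oestrogen receptor, had 20.1 ± 2.43 and 13.4 ± 2.73 CPM (adjusted p = 0.126). Nr1i2, the steroid and xenobiotic receptor PXR, had 72.5 ± 5.89 and 86.1 ± 8.82 CPM (adjusted p = 0.35).

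Of 15 genes known as glucocorticoid receptor targets, 2 were called higher, 0 lower and 13 were not called, and the list median was 0.09. Igfbp1, an insulin-repressed growth factor binding protein, rose from 16.2 ± 3.54 to 57.8 ± 16.8 CPM (adjusted p = 0.0416). Zbtb16, a zinc finger repressor, rose from 2.61 ± 1.04 to 14.6 ± 5.85 CPM (adjusted p = 0.0453). Over the whole list 8 of the 15 were positive, Igfbp1 and Zbtb16 among them, and 7 were negative. The list held 3 called genes without labelled wild-type replicate 1, 2 without labelled knockout replicate 2 and 0 without any of the other 4 libraries, and its median was -0.11 without labelled wild-type replicate 1 and between 0.06 and 0.29 in the remaining 5 such fits.

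Hsd3b3 (ENSMUSG00000062410; chromosome 3, 98648839 to 98670443) is an isomerase of the liver and kidney that converts hydroxyl to keto steroids. It had 169, 249 and 287 CPM in the wild-type-labelled libraries and 168, 262 and 155 CPM in the knockout-labelled libraries. The groups overlapped almost entirely. The log2 fold change of -0.27 (95% interval -0.88 to 0.34; adjusted p = 0.643) missed the threshold, became 0.030 when libraries were scaled by total counts and ran from -0.51 to -0.10 with 1 library left out. Hsd3b2 (ENSMUSG00000063730; chromosome 3, 98616571 to 98631859), its close relative, had 63.8, 72.0 and 85.0 CPM in the wild-type-labelled libraries and 58.8, 91.8 and 39.3 CPM in the knockout-labelled libraries. As for Hsd11b1, replicate 2 was the highest and replicate 3 the lowest of the knockout-labelled libraries, on either side of all those labelled wild type. Its log2 fold change was -0.22 (95% interval -0.88 to 0.45; adjusted p = 0.75), and it was 0.066 with total counts and 0.034 without labelled knockout replicate 3. With total counts the median of all tested genes was 0.31, above the values of both Hsd3b3 and Hsd3b2.

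Hsd3b5 (ENSMUSG00000038092; chromosome 3, 98525950 to 98537568) encodes a keto-steroid reductase of adult male mouse liver. It had 2440, 9050 and 11298 counts in labelled wild-type replicates 1, 2 and 3 and 555, 1461 and 14 counts in labelled knockout replicates 1, 2 and 3. Scaled, these were 47.0, 169.9 and 187 CPM against 7.25, 20.7 and 0.158 CPM. Every library labelled knockout was lower than every library labelled wild type, a separation that 12% of tested genes showed in the same direction and 25.7% in either. The means were 135 ± 76.3 and 9.38 ± 10.4 CPM. The log2 fold change was -3.85, its 95% interval -7.42 to -0.28, and it did not pass (edgeR adjusted p = 0.225). The value was -5.16 with labelled knockout replicate 2 left out, -4.25 with wild-type replicate 1 and -3.27 with knockout replicate 3 left out, and it lay between -3.69 and -3.54 in the remaining 3 such fits.

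The libraries of each label differed widely among themselves. The highest labelled knockout library exceeded the lowest 131-fold, and 98.6% of tested genes had a smaller coefficient of variation in those 3 libraries. Within the wild-type label the ratio was 3.97, with replicate 1 the lowest. Among the knockout-labelled libraries, replicate 3, with 0.158 CPM, had the most bile duct marker RNA, at 676 CPM, and replicate 2, with 20.7 CPM, the least, at 91.2 CPM. Not every marker list had this order. Stellate and fibroblast markers summed to 1141, 633 and 937 CPM in labelled knockout replicates 1, 2 and 3. Any link of Hsd3b5 to these markers was not tested. Without labelled knockout replicate 3 the remaining knockout values of 7.25 and 20.7 CPM were still below the lowest wild-type value of 47.0 CPM.

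Because neighbouring Hsd3b genes resemble each other, reads could have been assigned to the wrong copy. Over 1353 aligned bases the Hsd3b5 and Hsd3b3 transcripts were 76.1% identical, while Hsd3b2 and Hsd3b3 were 93.1% identical over 1490. Hsd3b5 had closer relatives in the cluster, at 92.8% over 1547 for Hsd3b4 and Hsd3b8 and 92.7% over 1549 for Hsd3b9. Hsd3b3 and Hsd3b6 were 93.8% identical over 1490. Of the windows of 100 bases in the Hsd3b5 transcript, 92.2% occurred in no other Hsd3b transcript of the cluster, and the values were 85.1% for Hsd3b3 and 94.3% for Hsd3b2. Hsd3b4 and Hsd3b8 had identical transcripts of 1610 bases, so their counts of 3 to 51 and 3 to 44 cannot be told apart.

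Counted as 1 gene, the 8 clustered Hsd3b genes had 281, 493 and 561 CPM in the wild-type-labelled libraries and 235, 375 and 195 CPM in the knockout-labelled libraries. The summed level overlapped between groups, with a log2 fold change of -0.73 (95% interval -1.47 to 0.02; adjusted p = 0.264). Hsd3b5 gave 16.7%, 34.4% and 33.3% of these counts in the wild-type-labelled libraries and 3.08%, 5.52% and 0.0811% in the knockout-labelled libraries, and its shares did not overlap (two-sided exact permutation p = 0.1 over libraries, the smallest that 3 against 3 allows). Since shares add up to the whole, those of the other genes were not separate differences. Hsd3b3 gave 60.2%, 50.5% and 51.2% against 71.6%, 69.8% and 79.3%, while its own level overlapped between the groups. Hsd3b2 gave 22.7%, 14.6% and 15.1% against 25.0%, 24.5% and 20.2%, which overlapped. The ratio of Hsd3b2 to Hsd3b3 counts was 0.321 ± 0.0489 in the wild-type-labelled libraries and 0.318 ± 0.0552 in the knockout-labelled libraries (exact permutation p = 1), in 6 comparisons of shares and ratios made.

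**Figure D2:**
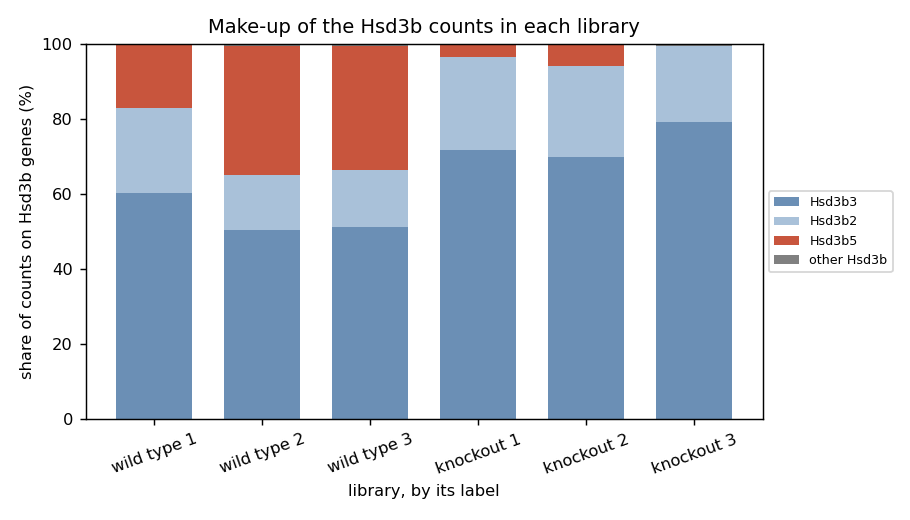
Share of the counts on the 8 clustered Hsd3b genes, in percent, taken by Hsd3b3, Hsd3b2, Hsd3b5 and the other 5 genes in each library. The Hsd3b5 part is 16.7% or more in the wild-type-labelled libraries and 5.52% or less in the knockout-labelled libraries.

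The other 3-beta and 11-beta dehydrogenases and 5-alpha reductases on the fixed list had 5 tested genes of 9, none of them called (1 with an unadjusted p under 0.05; DESeq2 called 1). Hsd3b7, which acts on bile acid precursors and not on hormones, had 519.8 ± 35.4 and 357 ± 73.8 CPM, a log2 fold change of -0.54 (adjusted p = 0.178). Hsd3b6 was near the floor, with 13, 23 and 35 counts in the wild-type-labelled libraries and 0, 0 and 21 in the knockout-labelled libraries (adjusted p = 0.389).

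Hsd17b2 (ENSMUSG00000031844; chromosome 8, 118428643 to 118485766) oxidises oestradiol to oestrone and testosterone to androstenedione. It had 133, 126 and 135 CPM in labelled wild-type replicates 1, 2 and 3 and 64.3, 68.3 and 59.8 CPM in labelled knockout replicates 1, 2 and 3. Every library labelled knockout lay below every library labelled wild type, as for 12% of tested genes, with 25.7% separated in either direction. Libraries of the same label differed by at most 1.14-fold. From 131 ± 4.58 to 64.1 ± 4.26 CPM, the log2 fold change was -1.03 ± 0.12 (SE) (95% interval -1.31 to -0.76; adjusted p = 0.039 by the quasi-likelihood test of edgeR). By p it ranked 9 among the 17606 tested genes. With the median of all genes subtracted, its change was -1.02 with either TMM or total-count scaling.

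The size of the Hsd17b2 difference barely moved when a library was left out, between -1.07 and -0.99, but its call did. Among the wild-type-labelled libraries the adjusted p was 0.0285 without replicate 1, 0.169 without replicate 2 and 0.13 without replicate 3, and, among the knockout-labelled libraries, 0.0986 without replicate 1, 0.0163 without replicate 2 and 0.0525 without replicate 3. In these same fits the number of genes called over the whole table ran from 0 to 912. Overlapping genes took few reads there, at most 44 counts per library for Gm31774 on the other strand.

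**Figure D3:**
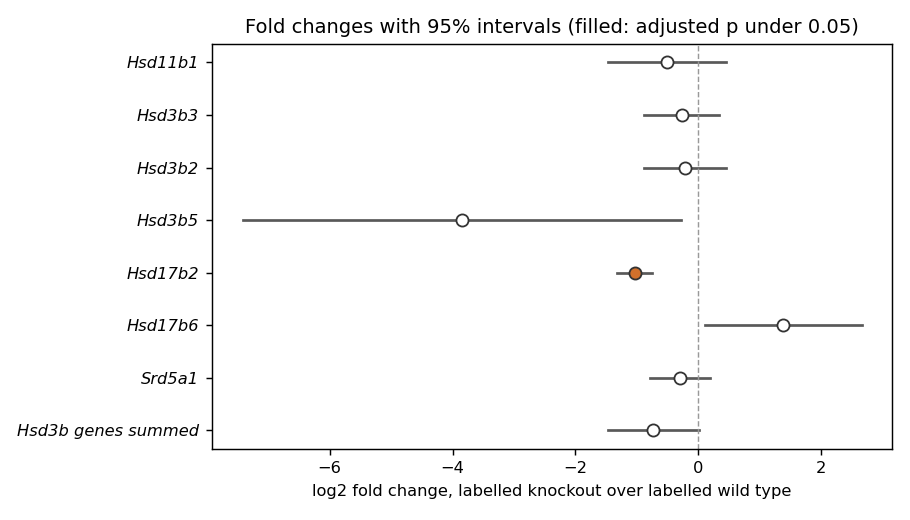
Log2 fold change of knockout-labelled over wild-type-labelled libraries with its 95% interval for the 7 genes and for the summed Hsd3b genes, filled where the adjusted p was under 0.05. The filled point is Hsd17b2 at -1.03, and the interval of Hsd3b5 runs from -7.42 to -0.28.

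Hsd17b6 (ENSMUSG00000025396; chromosome 10, 127826805 to 127843480) is an oxidising enzyme of the retinol dehydrogenase kind that in human returns androstanediol to the potent androgen dihydrotestosterone. It had 117, 30.5 and 75.3 CPM in labelled wild-type replicates 1, 2 and 3 and 191, 114 and 278 CPM in labelled knockout replicates 1, 2 and 3. The lowest library labelled knockout was just under the highest labelled wild type, so the groups overlapped. The means were 74.4 ± 43.5 and 194 ± 82.2 CPM, with a log2 fold change of 1.39 (95% interval 0.11 to 2.66; edgeR adjusted p = 0.221). Run with DESeq2, the same difference passed (adjusted p = 0.0161), and over the 14 alternatives its adjusted p ran from 0.0161 to 0.477. With 1 library left out the log2 fold change was 1.01 to 1.87.

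The balance of the 17-beta enzymes did not overlap between the groups. The ratio of Hsd17b6 to Hsd17b2 counts was 0.882, 0.242 and 0.558 in the wild-type-labelled libraries and 2.97, 1.67 and 4.65 in the knockout-labelled libraries (exact permutation p = 0.1, the smallest possible). It is built from the Hsd17b6 and Hsd17b2 values given above and was not a separate difference. Hsd17b6 alone overlapped between the groups, and 25.7% of single tested genes did not overlap in either direction. Of the other 17-beta-hydroxysteroid dehydrogenases, 8 of 10 were tested and none was called (1 with an unadjusted p under 0.05; DESeq2 called 1). Hsd17b13, a lipid droplet protein of hepatocytes, had 277 ± 60.5 and 500.5 ± 58.5 CPM, a log2 fold change of 0.86 (adjusted p = 0.0694). Hsd17b7, an enzyme of cholesterol synthesis, had 21.8 ± 1.13 and 17.7 ± 2.80 CPM (adjusted p = 0.314). In this list 4 genes were positive and 4 negative, with a median of -0.02.

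Srd5a1 (ENSMUSG00000021594; chromosome 13, 69721568 to 69759561) reduces testosterone to dihydrotestosterone and also clears glucocorticoids. It had 65.6, 115 and 111 CPM in the wild-type-labelled libraries and 85.4, 78.5 and 74.1 CPM in the knockout-labelled libraries. The lowest and the highest libraries both carried the wild-type label. The log2 fold change was -0.29 (95% interval -0.78 to 0.19; adjusted p = 0.506), and it was 0.036 with total counts and -0.51 without labelled wild-type replicate 1 (adjusted p = 0.107). With total counts the median of all tested genes was 0.31. Nsun2, which overlaps Srd5a1 on the other strand, had 3445 to 5778 counts per library, and whether reads of the overlap were kept apart by strand is not given in the sources used here.

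Downstream of these enzymes, steroids are reduced by aldo-keto reductases or hydroxylated and conjugated for export. None of 7 tested aldo-keto steroid reductases was called (0 with an unadjusted p under 0.05, and DESeq2 called 0). Akr1c19 had 42.7 ± 8.16 and 58.7 ± 17.9 CPM (adjusted p = 0.335), and Akr1d1, the 5-beta reductase of bile acid and hormone clearance, 110.2 ± 32.1 and 87.4 ± 32.9 CPM (adjusted p = 0.611). Among 13 tested genes of conjugation and hydroxylation 1 was called higher, 0 lower and 12 were not called. That gene was Cyp3a11, the main steroid and drug hydroxylase of its family, which rose from 902 ± 368 to 4278 ± 1243 CPM (adjusted p = 0.0453). The list held 2 called genes without labelled wild-type replicate 1, 1 without labelled knockout replicate 2 and 0 without any of the other 4 libraries.

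Lists of sex-biased liver genes, part of which earlier results of these data had shown to differ, are given here beside the Hsd3b5 values. Of 22 male-biased genes other than Hsd3b5, 3 were called lower, 0 higher and 19 were not called, with 20 fitted below 0 and 2 above. Their median was -1.07 (-0.81 with total counts), beside -0.02 (0.31 with total counts) for all tested genes. Moxd1, a monooxygenase relative, had 173 ± 134 and 0.0879 ± 0.0995 CPM (adjusted p = 0.0453). Cyp2u1, a cytochrome P450, fell from 29.5 ± 1.41 to 13.2 ± 3.54 CPM (adjusted p = 0.0462), and Nudt7, a peroxisomal coenzyme A hydrolase, from 653 ± 48.4 to 238 ± 74.9 CPM (adjusted p = 0.0464). The female-biased list had 18 tested genes, with 1 called higher, 0 called lower and 17 not called, with 17 fitted above 0 and 1 below, and a median of 2.97. The called gene was Fmo2, which encodes a flavin monooxygenase and rose from 7.40 ± 1.20 to 35.4 ± 5.12 CPM (adjusted p = 0.0146). Male-biased genes called were 3 without labelled wild-type replicate 1 or labelled knockout replicate 2 and 0 without any of the other 4 libraries. The count of called female-biased genes was 2 without labelled knockout replicate 2, 0 without labelled wild-type replicate 2 and 1 in the remaining 4 such fits. The female-biased median was 2.10 without labelled knockout replicate 3 and between 2.53 and 3.33 in the remaining 5 such fits, and the male-biased median ran from -1.33 to -0.93.

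Of 12 genes of growth hormone signalling none was called (2 with an unadjusted p under 0.05; DESeq2 called 2). Socs2, the feedback inhibitor induced by growth hormone, had 7.76 ± 3.41 and 24.3 ± 8.58 CPM (adjusted p = 0.0713), and Igfals, the acid-labile subunit that carries IGF1 in plasma, 129.7 ± 10.7 and 81.1 ± 26.3 CPM (adjusted p = 0.16). Without labelled wild-type replicate 1 this list held 2 called genes. Position along the lobule was read from 12 pericentral and 12 periportal hepatocyte genes, of which none was called (0 with an unadjusted p under 0.05 in either, and DESeq2 called 0 in both). All 12 pericentral genes had a negative log2 fold change, between -0.76 and -0.25, and the pericentral median of -0.36 was -0.07 with total counts. The periportal median of -0.28 was 0.05 with total counts, and 1 periportal gene was called without labelled wild-type replicate 1. The median of all tested genes moved as well, from -0.02 to 0.31 with total counts, and both list medians were below it under either scaling. Lgr5, a pericentral WNT receptor gene, had 6.69 ± 0.757 and 4.05 ± 1.72 CPM (adjusted p = 0.272). Gulo, the enzyme of vitamin C synthesis, had 539.8 ± 75.7 and 413 ± 97.1 CPM (adjusted p = 0.381). Pigr, the immunoglobulin transporter, had 1092 ± 121 and 744 ± 208 CPM (adjusted p = 0.267), and Apoa4, an apolipoprotein, 1545 ± 934 and 2741 ± 283 CPM (adjusted p = 0.296).

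Divided by the length of the longest coding transcript, Hsd11b1 was the most abundant of the 7 in both groups, with 221 ± 29.2 CPM per kilobase in the wild-type-labelled libraries and 156 ± 93.5 in the knockout-labelled libraries. In the wild-type label it was followed by Hsd3b3 at 153 ± 39.3, Hsd17b2 at 99.6 ± 3.47, Hsd3b5 at 86.9 ± 49.3, Hsd17b6 at 48.9 ± 28.6, Srd5a1 at 36.7 ± 10.4 and Hsd3b2 at 19.9 ± 2.89 CPM per kilobase. Of neighbours in that order, the ranges over libraries overlapped for Hsd17b2 and Hsd3b5, for Hsd3b5 and Hsd17b6, and for Hsd17b6 and Srd5a1. In the knockout label the order after Hsd11b1 was Hsd17b6 at 128 ± 54.0, Hsd3b3 at 127 ± 38.1, Hsd17b2 at 48.6 ± 3.23, Srd5a1 at 30.0 ± 2.15, Hsd3b2 at 17.1 ± 7.18 and Hsd3b5 at 6.05 ± 6.74 CPM per kilobase. There the ranges of Hsd11b1, Hsd17b6 and Hsd3b3 overlapped with each other, and those of Hsd3b2 and Hsd3b5 overlapped too. Hsd3b5 thus went from the fourth to the last place and Hsd17b6 from the fifth to the second. The order rests on the transcript taken: by the shortest coding transcript, Hsd3b2 had 65.6, Hsd17b6 186 and Hsd17b2 99.6 CPM per kilobase in the wild-type-labelled libraries.

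**Figure D4:**
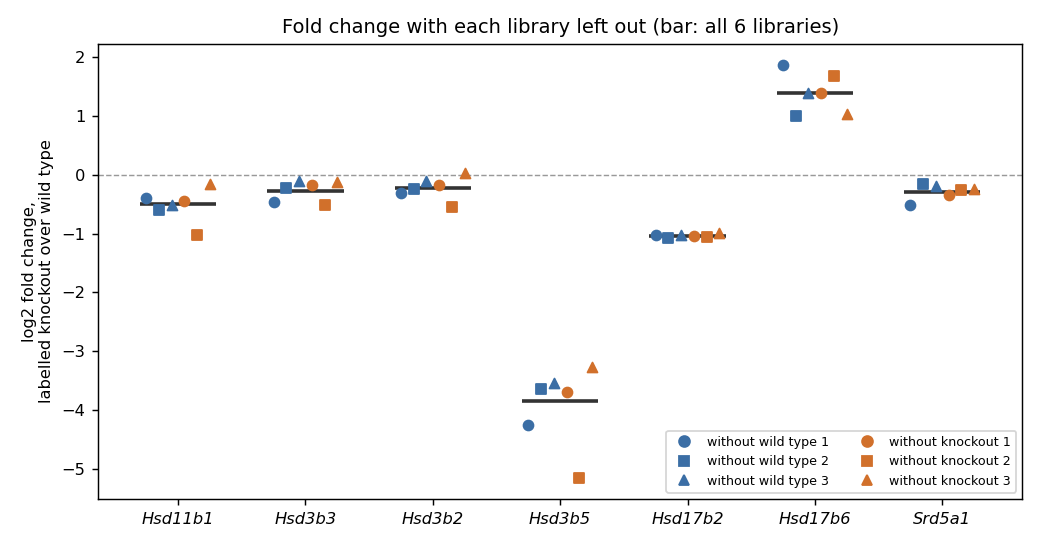
Log2 fold change of each of the 7 genes with each library left out in turn (points) and with all 6 libraries (bar). Hsd17b2 stays between -1.07 and -0.99, while Hsd3b5 moves between -5.16 and -3.27 and Hsd3b2 reaches 0.034 without labelled knockout replicate 3.

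Over the 6 libraries the likeness of levels, measured by Pearson's r of log2(CPM + 0.5) against 11967 named genes averaging 1 CPM or more, was high for many genes, over 6 points that share their groups. For Hsd17b2 the nearest were Ubac2 (r = 0.997) and Vtn, the plasma protein vitronectin (r = 0.993), and 3.59% of the genes compared had an r over 0.9. For Hsd3b5 they were Lin7a (0.997) and Cfhr4, a complement factor H relative (0.996), and for Hsd11b1 the glucuronosyltransferase relative Ugt3a2 (0.992) and Ube2r2 (0.992). Those of Hsd3b2 were Plpbp (0.995) and Akr1c14 (0.988), and those of Hsd3b3 Ola1 (0.99) and Aldh4a1 (0.989). Hsd17b6 was nearest to Ndrg1 (0.994) and Map4k1 (0.994), and Srd5a1 to the thiamine transporter Slc19a2 (0.994) and to Selenbp2 (0.994). Among the 7 genes themselves, r with Hsd3b5 was 0.863 for Hsd17b2, 0.831 for Hsd11b1, 0.807 for Hsd3b2, 0.746 for Hsd3b3, 0.61 for Srd5a1 and -0.88 for Hsd17b6.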

How the data were processed

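Poly(A)-selected liver RNA of 6 libraries was analysed, 3 labelled wild type and 3 labelled Atp7b knockout. Per the labels' protocols the libraries were made with dUTP in the second strand. The authors deposited raw read counts per gene, 1 column per library without pooling. The submitters' processing notes name GRCm39 and edgeR without roles; the aligner, counter, annotation and use of strand in counting are not given in the sources used here. Nothing in the labels ties each library to its own animal, so the p-values reflect differences among these 6 samples that may be partly technical.

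From the counts, genes were kept by filterByExpr, scaled by TMM and compared by the robust quasi-likelihood F test of edgeR (R 4.3.3, edgeR 4.0.16, DESeq2 1.42.0, limma 3.58.1), with Benjamini-Hochberg adjustment over all tested genes and a call at 0.05. The test was also run on simulated data. Levels are TMM-scaled CPM, mean ± SD over 3 libraries. Intervals of 95% and floors cover counting error and modelled spread only. Lengths and transcripts came from GENCODE M21 and upstream windows from RefSeq, both GRCm38, matched by gene identifier or symbol; gene coordinates are those of the deposited table. The 7 genes and the lists were chosen with earlier results of these data known. Named genes were the 7, up to 3 called members of each list or 2 with the smallest p, and the 2 genes most like each of the 7. Alternatives were other scalings, filters and tools, the replicate number as a block, and each library left out.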

Additional observations from a re-analysis of the deposited data

How the results depend on the processing

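Of the 115 alternative fits of single genes or the Hsd3b sum, 105 kept direction and side of the threshold. Most of the 105 were of genes called in neither fit. The same fit of the Hsd3b sum, at -0.73, was entered for each of Hsd3b2, Hsd3b3 and Hsd3b5. Hsd17b2, the only 1 of the 7 called, lost its call in 5 of 14 alternatives. Total counts turned Hsd3b2 (0.066), Hsd3b3 (0.030) and Srd5a1 (0.036) positive, with the median of all genes at 0.31 in place of -0.02, and leaving out labelled knockout replicate 3 turned Hsd3b2 (0.034), whose range with 1 library left out was -0.55 to 0.034. The cause of the other changes was not tested. Genes called were 253, of which 64.8% were higher; they were 1008 with total counts (93.4% higher), 473 without a filter, 1867 with DESeq2, 71 with limma voom (45.1% higher) and 4 with the replicate number as a block, and 0 to 912 with 1 library left out. Same-numbered libraries did not deviate together (correlations of -0.023, -0.051 and -0.038, none best with its own number). With the block 0 of the 7 genes were called, Hsd17b2 was at -1.04 (adjusted p = 0.0605), and the steroid conjugation, glucocorticoid target and male-biased lists held 0 called genes. With DESeq2 2 of the 7 were called, Hsd17b6 being at 1.40. Leaving out 1 library gave 0 to 1 of the 7, and Hsd17b2 ran from -1.07 to -0.99.

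Of all tested genes 10.6% were called with DESeq2, 5.73% with total counts, 1.7% without a filter and 0.403% with limma voom. Called genes in the lists with DESeq2 were 1 for other 17-beta dehydrogenases, 1 for other 3-beta and 11-beta enzymes, 4 for conjugation, 1 for cofactor supply, 4 for glucocorticoid targets, 10 male-biased, 7 female-biased and 2 for growth hormone. With total counts they were 1 for other 17-beta dehydrogenases, 2 for conjugation, 1 for cofactor supply, 1 for receptors, 3 for glucocorticoid targets, 4 male-biased, 2 female-biased and 1 for growth hormone. Without a filter conjugation held 2 and the male-biased list 4. With limma voom conjugation and male-biased lists held 0 and glucocorticoid targets 1. With 1 library left out, conjugation, growth hormone and female-biased lists ran from 0 to 2, glucocorticoid targets and male-biased genes from 0 to 3 and periportal genes from 0 to 1. With 3 libraries a group, the Hsd3b5 interval spans -7.42 to -0.28.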
